A study of Mus musculus with 8 samples.

Results

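The miR-200 family is described here by its 7 mature arms that carried reads under their own names, mmu-miR-200a-3p, mmu-miR-200a-5p, mmu-miR-200b-3p, mmu-miR-200b-5p, mmu-miR-429-3p, mmu-miR-200c-3p and mmu-miR-141-3p (written without the species prefix from here on). Every row of the deposited small RNA table whose miRNA name equalled one of these names was taken, which gave 164 of the 47204 distinct read sequences and 7 of the 895 miRNA names. The arms were proposed because their levels differed between the genotypes in these same libraries, so every comparison of their levels or isoforms between genotypes is a description and carries no test. Comparisons of one arm with another within a library did not enter that choice and were tested.

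RNA bound to Argonaute (Ago) proteins was captured with a GW182 peptide from cortex and hippocampus combined, and small RNAs were sequenced from 8 mice. There were 4 libraries from 5XFADtg/Rubicon het mice (het) and 4 from 5XFADtg/Rubicon ko mice (ko), each from a different animal. The mice were females on a mixed C57BL/6J and SJL background. Their age is 6 months in the account of this comparison and 6 or 8 months in the methods summary, and the labels give none. The methods give 4 mice of each genotype, as does the table, although another passage of the published account gives fewer, and all 8 libraries were used. All animals, het included, carried the 5XFAD transgene, which is driven in neurons and produces amyloid, and Rubicon, a regulator of autophagy and of LC3-associated phagocytosis and endocytosis, was missing from the whole animal in ko. Neither mice without the transgene nor mice with intact Rubicon entered the comparison. No sequence in the table matched Rubcn, the gene for Rubicon, so the genotype labels could not be checked with the deleted gene. Bulk tissue was used, so fewer cells of a type and less RNA per cell cannot be told apart.

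Values are CPM, reads of an item per 1000000 reads of the library. Depth ranged from 509839 reads in het replicate 1 to 19878054 in ko replicate 2, and the 2 libraries over 5000000 reads were ko replicates 1 and 2. A level of 3 reads, used as the floor, corresponded to 5.79 CPM in the shallowest of these libraries and to 0.151 CPM in the deepest. The neuronal miRNAs listed as markers of the tissue (miR-124-3p, miR-128-3p, miR-9-5p and miR-138-5p) summed to between 150911 and 252535 CPM in every library. The family held 45584 reads in all.

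miRNAs guide Ago proteins to mRNAs through their seed, which pairs with matching sites mostly in 3′UTRs. The miR-200 family is best known for holding cells in an epithelial state by repressing the transcription factors Zeb1 and Zeb2, which in turn repress E-cadherin and the miR-200 genes themselves. In the nervous system the family is known mainly from the olfactory epithelium and other neuroepithelia, and adult cortex and hippocampus are not among its main sites.

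The mature sequences show what the family shares and where its members part. They are taken from RefSeq (GRCm38.p6), written 5′ to 3′, with the seed (bases 2 to 8) in capitals.
miR-200b-3p: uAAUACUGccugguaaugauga
miR-200c-3p: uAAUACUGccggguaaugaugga
miR-429-3p: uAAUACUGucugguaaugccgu
miR-200a-3p: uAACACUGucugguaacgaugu
miR-141-3p: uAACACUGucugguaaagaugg
miR-200b-5p: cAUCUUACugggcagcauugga
miR-200a-5p: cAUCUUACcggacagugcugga

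Counted from 1 at the 5′ end, the substitution U4C set miR-200a-3p and miR-141-3p apart from miR-200b-3p within the seed. The 6mer seed (positions 2 to 7) of miR-200b-3p, miR-200c-3p and miR-429-3p was AAUACU, and that of miR-200a-3p and miR-141-3p was AACACU. The first seed pairs with the site CAGUAUU and the other with CAGUGUU. Both 5p arms carried AUCUUA. The deposited seed viability, the mean viability of 3 mouse cell lines after transfection of an siRNA with that seed in an earlier screen, was 82 for AAUACU, 64.6 for AACACU and 87.5 for AUCUUA. Low values of this score mark toxic seeds in the mechanism the study calls Death Induced by Survival gene Elimination, and all 3 seeds were above the mean of each whole library, which lay between 55.5 and 57.8.

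Few bases tell the arms of one seed apart. miR-200a-3p and miR-141-3p shared their first 16 bases and differed by C17A and U22G. miR-200b-3p and miR-200c-3p shared their first 10 bases and differed by U11G and A22G over the 22 bases compared, and miR-200b-3p and miR-429-3p differed by C9U, A19C, U20C and A22U. No member read was too short to tell a pair of arms apart. The members also supplied nearly all of their seeds, with 99.4% of the CPM of all reads with AAUACU, 99.7% of those with AACACU and 91.8% of those with AUCUUA.

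The arms come from 2 loci. The hairpins of miR-200b, miR-200a and miR-429 lie on the minus strand of chromosome 4 within 1846 bp (chr4:156053905-156055750, GRCm38). In the GENCODE M21 annotation all 3 lie within the protein-coding gene Ttll10 with no overlap of its exons, and within Gm13648, a processed transcript on the same strand, of which an exon overlaps the miR-429 hairpin. The hairpins of miR-200c and miR-141 lie on the minus strand of chromosome 6 within 477 bp (chr6:124717914-124718390), inside the antisense gene Gm15884. Of the 3p arms, miR-200b-3p lies at chr4:156055685-156055706, miR-200a-3p at chr4:156054911-156054932, miR-429-3p at chr4:156053916-156053937, miR-200c-3p at chr6:124718324-124718346 and miR-141-3p at chr6:124717917-124717938. The 5p arms lie at chr4:156055721-156055742 for miR-200b and at chr4:156054949-156054970 for miR-200a.

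The summed family was lower in every ko library than in every het library. In the order of the replicate numbers, as in every list of 4 values below, the het libraries had 4531, 3531, 2203 and 8506 CPM and the ko libraries 165, 184, 1736 and 764 CPM. This was 0.220% to 0.851% of a het library and 0.0165% to 0.174% of a ko library. The means were 4693 ± 2715 CPM for het and 712 ± 737 CPM for ko (SD, n = 4 each), and the difference of the mean log2(CPM + 1) values was -3.21. Both ko libraries over 5000000 reads were also those with the lowest family sums, and without them the difference was -1.85. In these 2 libraries depth and genotype cannot be told apart. The other ko libraries, replicates 3 and 4, had 2313082 and 1010177 reads, and the het libraries 509839 to 2634450. The part of depth in the family's levels was not tested.

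**Figure D1:**
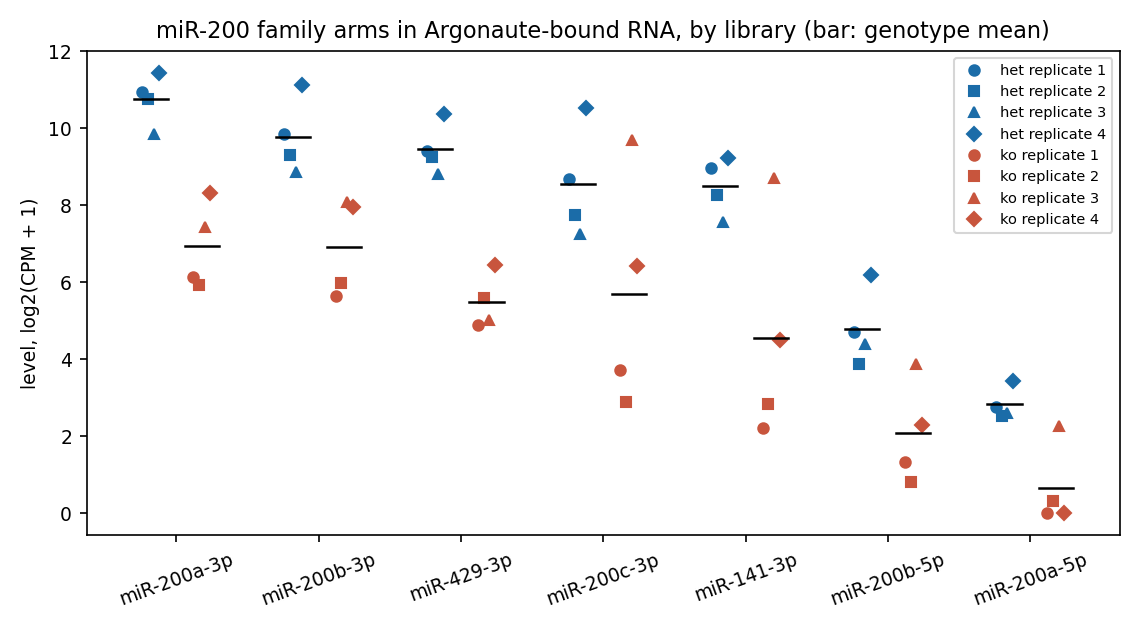
Level of each miR-200 arm as log2(CPM + 1) in each of the 8 libraries, het in blue and ko in red, with a marker shape for the replicate number and a bar for the mean of 4 libraries. In all 7 arms het replicate 4 is the highest het library, and in miR-200c-3p and miR-141-3p ko replicate 3 lies among the het libraries.

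miR-200a-3p had the highest mean CPM over all 8 libraries, but not over the ko libraries alone, where miR-200c-3p (232 CPM) and miR-200b-3p (158 CPM) were higher. It measured 1977, 1751, 922 and 2788 CPM in het and 69.6, 60.1, 171 and 318 CPM in ko, with no overlap. The means were 1859.7 ± 767 CPM in het and 155 ± 120.1 CPM in ko, a ratio of 12.01, and the limma estimate was -3.80 (SE 0.49) on the log2(CPM + 1) scale, or -2.88 without the 2 deepest libraries. It led the family in 6 of 8 libraries. The exceptions were ko replicate 2, led by miR-200b-3p, and ko replicate 3, led by miR-200c-3p.

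miR-200b-3p measured 927, 629, 465 and 2231 CPM in het and 48.9, 62.5, 274 and 249 CPM in ko, again with no overlap. The means were 1063 ± 802 CPM and 158 ± 119 CPM, a ratio of 6.71, and the log2 estimate was -2.86 (SE 0.59). The 2 lower ko libraries were the 2 deepest ones, and without them the estimate was -1.75.

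miR-429-3p, the third arm of the same locus, measured 678, 611, 452 and 1338 CPM in het and 28.8, 47.5, 31.4 and 86.2 CPM in ko. The means of 769.6 ± 391 and 48.5 ± 26.5 CPM differed by a ratio of 15.9, and the log2 estimate was -3.98 (SE 0.41). Among the members this was the largest estimate and the one with the smallest SE, and the highest ko library lay far below the lowest het library.

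miR-200c-3p and miR-141-3p, the arms of the chromosome 6 locus, overlapped between the genotypes. miR-200c-3p measured 413, 215, 151 and 1466 CPM in het and 12.3, 6.48, 823 and 85.2 CPM in ko. Replicate 3 of ko exceeded 3 of the 4 het libraries, and the other ko libraries lay below all of them. The means were 561 ± 613 and 232 ± 396 CPM, a ratio of 2.42, and the log2 estimate was -2.86 (SE 1.48), or -4.20 without ko replicate 3 and -0.49 without the 2 deepest libraries.

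miR-141-3p followed the same pattern, with 506, 307, 188 and 599.6 CPM in het and 3.69, 6.12, 418 and 21.6 CPM in ko. The means were 400.1 ± 187 and 112 ± 204 CPM, a ratio of 3.56. The log2 estimate was -3.94 (SE 1.33), or -5.32 without ko replicate 3 and -1.91 without the 2 deepest libraries. The 3 other ko libraries lay below every het library, as for miR-200c-3p.

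The 5p arms, which are usually discarded as passenger strands, were scarce. miR-200b-5p measured 25.1, 13.757, 20.2 and 72.8 CPM in het and 1.53, 0.753, 13.749 and 3.92 CPM in ko. Its log2 estimate was -2.72 (SE 0.73), or -3.32 without ko replicate 3 and -1.71 without the 2 deepest libraries. The genotypes did not overlap, but ko replicate 3 and het replicate 2 were apart by less than 1 read in either library. miR-200a-5p measured 5.79, 4.82, 5.05 and 9.76 CPM in het and 0, 0.251, 3.87 and 0 CPM in ko. These values rest on 49 reads in het and 14 in ko, and the 0 in ko replicate 4 allows up to 2.94 CPM. With a mean of 3.69 CPM over all libraries this arm was under the minimum of 10 CPM and was not fitted, while the other 6 members were.

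In the limma fit over the 463 miRNAs that reached this minimum, 1.3% were lower in ko at a Benjamini-Hochberg adjusted p under 0.05. None was higher, and 34 had an unadjusted p under 0.05. Of the members fitted, 3 of 6 (miR-200a-3p, miR-200b-3p and miR-429-3p) were among those 6 calls, and all ko libraries lay below the lowest het library for 4 of 6, as they did for 3.24% of the 463. The same held for miR-200a-5p, which is not among the 463. edgeR called 2 members among its 4 calls over the 463 miRNAs, and DESeq2 4 members among its 9 calls. miR-200b-3p was not among the calls in 6 of 17 alternative settings (edgeR, without the 2 deepest libraries, and without het replicate 1, het replicate 4, ko replicate 1 or ko replicate 2). Since the members were chosen on this contrast, nothing is read from these counts. The median estimate was -3.33 over the members fitted and -0.09 over all 463. When libraries were centred on their medians, the median of all miRNAs became 0.13, and the 6 members' estimates stayed negative.

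**Figure D2:**
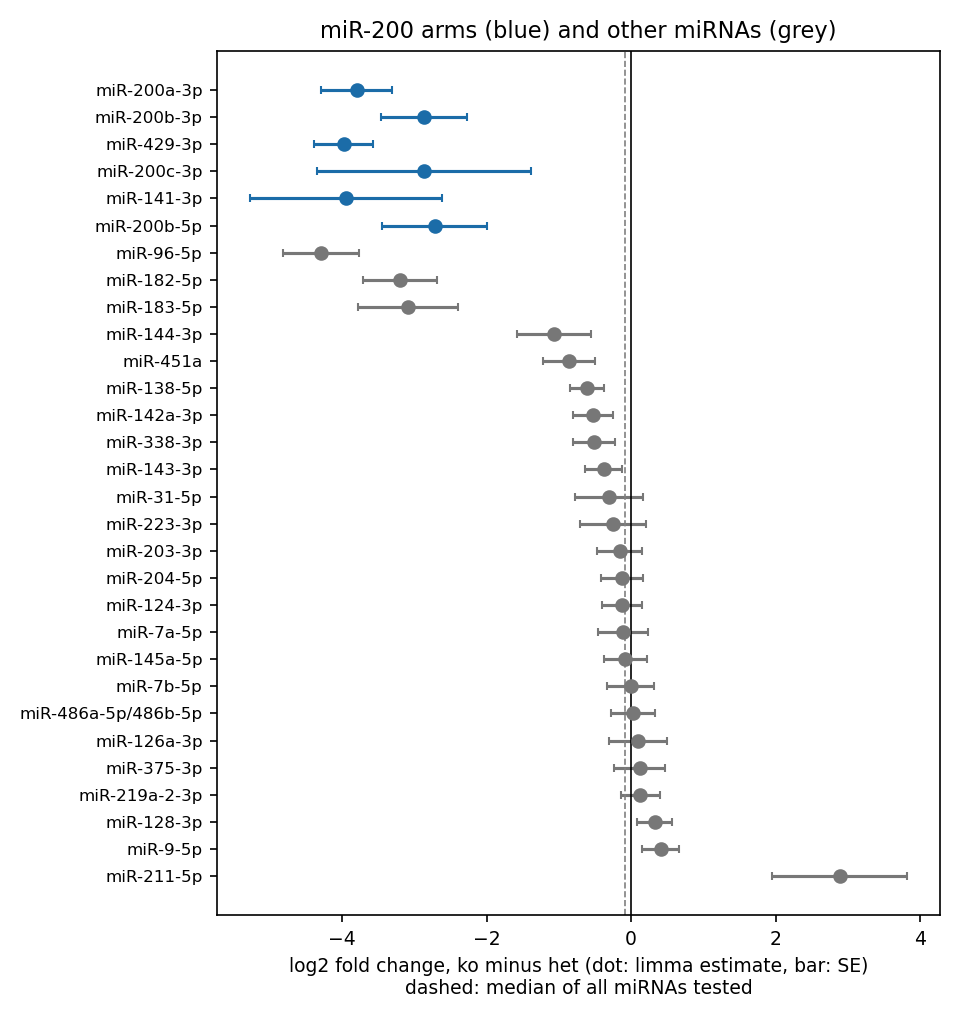
Difference between genotypes for the 6 fitted miR-200 arms (blue) and for the 24 fitted miRNAs of the lists of other cells (grey), as the limma estimate on the log2(CPM + 1) scale with its SE. The miR-200 arms lie between -3.98 and -2.72, with wide SEs for miR-200c-3p and miR-141-3p, and of the grey miRNAs miR-182-5p and miR-183-5p lie in that range, miR-96-5p lies below it at -4.29, the next are miR-144-3p at -1.07 and miR-451a at -0.86, and miR-211-5p is the highest at 2.88.

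The order of the arms by mean log2 level was miR-200a-3p (8.86), miR-200b-3p (8.35), miR-429-3p (7.48), miR-200c-3p (7.12), miR-141-3p (6.54), miR-200b-5p (3.44) and miR-200a-5p (1.74). Each pair of neighbours was compared within libraries by an exact two-sided sign-flip permutation test, in which 8 libraries allow no p below 0.00781, with adjustment over the 6 pairs. miR-200b-3p exceeded miR-429-3p in 8 of 8 libraries, by 0.88 ± 1.01 log2 units (SD, exact permutation adjusted p = 0.0156). The mean was 0.32 in the het libraries alone and 1.43 in the ko libraries alone. In het replicates 2 and 3 the arms were nearly equal, with a ratio of 1.03 in each. miR-141-3p exceeded miR-200b-5p by 3.10 ± 1.36 and miR-200b-5p exceeded miR-200a-5p by 1.70 ± 0.69, each in 8 of 8 libraries with the same adjusted p. In every library both 5p arms thus lay below the lowest 3p arm.

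The other neighbours did not differ beyond their spread. miR-200a-3p was above miR-200b-3p in 6 of 8 libraries by 0.50 ± 0.68 (adjusted exact permutation p = 0.129). miR-429-3p and miR-200c-3p differed by 0.36 ± 2.23 (adjusted exact permutation p = 0.68), and miR-200c-3p and miR-141-3p by 0.58 ± 0.95 (adjusted exact permutation p = 0.159).

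The loci were not represented alike in all mice. The summed 3p arms of chromosome 4 measured 3581, 2990.4, 1839 and 6358 CPM in het and 147, 170.1, 477 and 653.5 CPM in ko. The summed 3p arms of chromosome 6 measured 919, 522, 339 and 2065 CPM in het and 16.0, 12.6, 1242 and 107 CPM in ko. The chromosome 4 sum holds more arms than the chromosome 6 sum, so equal levels per arm would already put their log2 ratio above 0. The chromosome 4 sum was larger in 7 of 8 libraries, by 2.07 ± 1.53 log2 units on average (exact two-sided sign-flip permutation p = 0.0156, adjusted over 3 ratio measures p = 0.0234). Without the 2 deepest libraries it was 1.63 (exact permutation p = 0.0625, with a smallest possible p of 0.0312 for 6 libraries).

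The exception was the library labelled ko replicate 3, in which the chromosome 6 arms made up 72.3% of the family's 3p CPM. In the other 7 libraries this share lay between 6.90% and 24.5%. The arms of the chromosome 4 locus were also unequal in this mouse, with miR-200b-3p at 8.73 times miR-429-3p, where the other libraries had ratios from 1.03 to 2.89. It also had the highest miR-31-5p, a miRNA listed as epithelial, at 1842 CPM against 297 to 824 CPM in the other 7 libraries, while the epithelial miR-203-3p (67.03 CPM) and miR-205-5p (8.59 CPM) lay within the range of the others. Whether these values have a part in the level of the chromosome 6 arms was not tested.

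**Figure D3:**
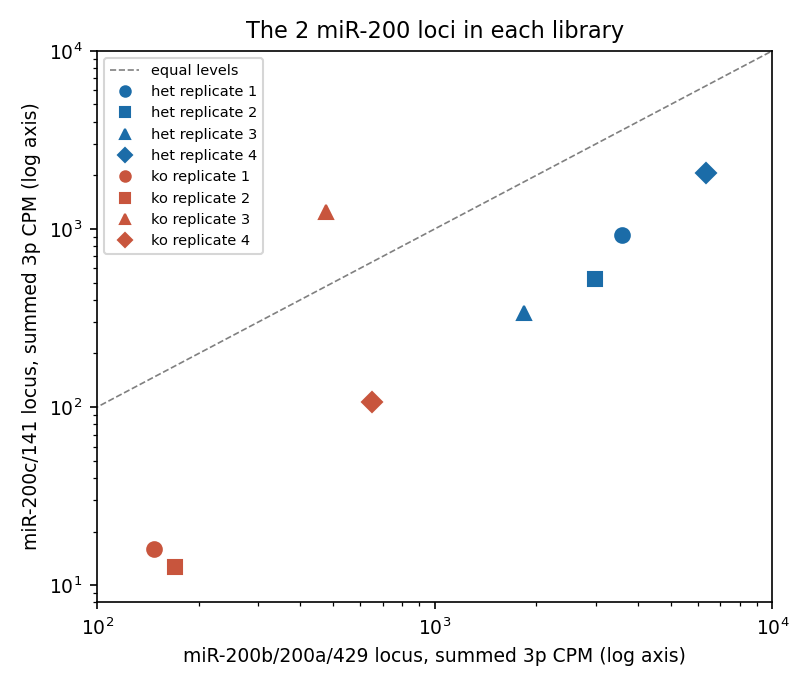
Summed CPM of the 3p arms of the miR-200b, miR-200a and miR-429 locus (x axis, log) against the miR-200c and miR-141 locus (y axis, log) in each library, with a dashed line where both are equal. All libraries lie below the line except ko replicate 3, which has 477 CPM on x and 1242 CPM on y.

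Grouped by seed and not by locus, the arms were closer to balance. The summed 3p arms with AAUACU measured 2017, 1454, 1067 and 5035 CPM in het and 90.0, 116, 1128 and 420.3 CPM in ko. Those with AACACU measured 2483, 2058, 1110.0 and 3388 CPM in het and 73.3, 66.2, 589.9 and 340.0 CPM in ko. The AAUACU sum holds more arms than the AACACU sum, so equal levels per arm would again put the log2 ratio above 0. The log2 ratio of the first to the second averaged 0.26 ± 0.52, above 0 in 5 of 8 libraries, and did not differ from 0 beyond its spread (exact two-sided sign-flip permutation p = 0.188). By genotype the ratio was -0.30, -0.50, -0.06 and 0.57 in het and 0.30, 0.81, 0.94 and 0.31 in ko, so that het replicate 4 lay among the ko libraries. The AAUACU arms accordingly held 41.4% to 59.8% of the family's 3p CPM in het and 55.1% to 65.7% in ko.

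The mean seed viability of the family's own reads was between 71.9 and 75.2 in het and between 74.4 and 76.1 in ko. The family is a small part of the nontoxic reads. Among reads with a seed viability over 80, it held 2.24%, 1.52%, 1.22% and 5.59% of the CPM in het and 0.121%, 0.144%, 1.38% and 0.468% in ko. With the family included, reads over 80 made up 8.88% to 9.65% of a het library and 7.55% to 9.12% of a ko library. With the family left out, they made up 8.57% to 9.50% of a het library and 7.54% to 9.07% of a ko library. The genotypes overlapped either way.

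The balance of the arms was compared for the hairpins with both arms among the members. The 5p arm made up 2.64%, 2.14%, 4.16% and 3.16% of miR-200b reads in het and 3.03%, 1.19%, 4.78% and 1.55% in ko. For miR-200a it made up 0.292%, 0.274%, 0.544% and 0.349% in het and 0%, 0.416%, 2.21% and 0% in ko, where 0 of 547 and 0 of 325 reads allow up to 0.548% and 0.923%. The share was larger for miR-200b in 8 of 8 libraries, by 2.32 ± 0.90 percentage points (SD, exact two-sided sign-flip permutation p = 0.00781, the smallest possible, adjusted over 3 measures p = 0.0234). Between genotypes the shares overlapped for both hairpins, at 3.03% ± 0.865 in het and 2.64% ± 1.64 in ko for miR-200b. The 95% Wilson intervals of single libraries were up to 3.48 percentage points wide and cover counting error only.

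**Figure D4:**
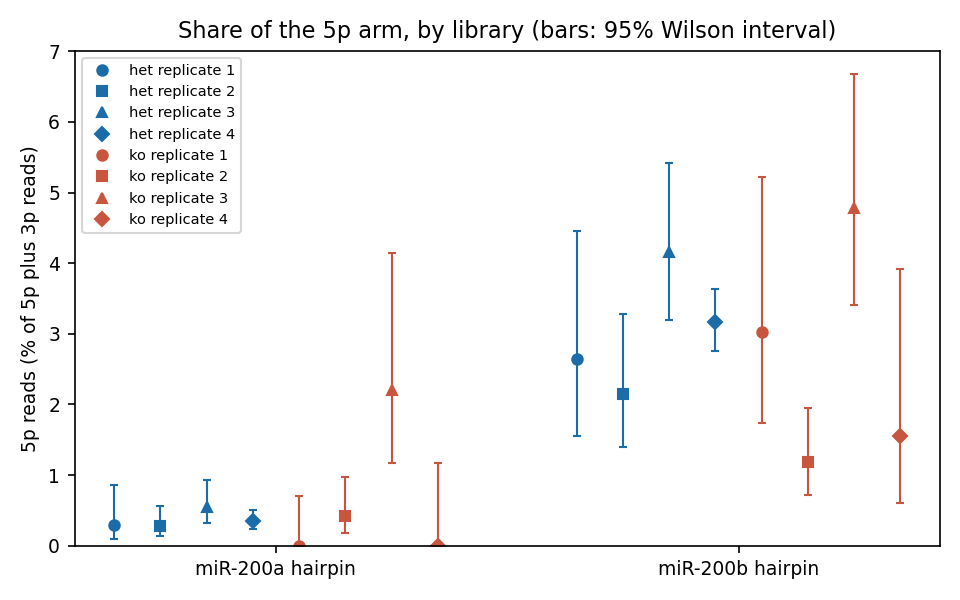
Share of 5p reads among the 5p and 3p reads of the miR-200a and miR-200b hairpins in each library, with 95% Wilson intervals. The miR-200b share lies between 1.19% and 4.78% and is above the miR-200a share of the same library in all 8.

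The remaining arms of the family were looked for by name. miR-429-5p and miR-200c-5p had no sequence among the 47204, each of which had at least 8 reads over the libraries. miR-141-5p had 2 sequences with 1.93, 3.44, 0.776 and 9.39 CPM in het, 33 reads in all, and 0 of 31046759 reads in ko, which allows up to 0.0964 CPM over the ko libraries together. A further 19 sequences with 266 reads matched the 5 hairpins without a mature name and were not counted as members.

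Read isoforms were defined against the RefSeq hairpins. Of the 164 sequences, 62 were cut from the hairpin as written and held 88.2% of the members' reads. Another 91, with 11.6% of reads, ended in up to 3 bases that the hairpin does not encode, and 11 had another mismatch. The 5′ end, which sets the seed, was the annotated one in all but 2.15% of reads. Since sequences with fewer than 8 reads in total were removed from the table, shares of rare isoforms are lower bounds in libraries with few member reads, which ranged from 22 to 7427 per 3p arm and library.

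The 3′ end was far less fixed than the 5′ end. The leading reads of miR-200a-3p and miR-141-3p differ by a single added base, and are printed in the letters of the table, with the seed in capitals.
miR-200a-3p, 22 nt: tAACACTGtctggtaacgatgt
miR-200a-3p, 23 nt: tAACACTGtctggtaacgatgtt
miR-141-3p, 22 nt: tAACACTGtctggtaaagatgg
miR-141-3p, 23 nt: tAACACTGtctggtaaagatggc

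These reads were encoded by their hairpins. As single sequences, the 22 nt and 23 nt forms held 41.7% and 41.0% of miR-200a-3p CPM and 38.3% and 35.9% of miR-141-3p CPM summed over the libraries. On average over the 8 libraries, miR-200a-3p had 37.1% of its reads at 22 nt and 48.4% at 23 nt. miR-141-3p had 39.1% and 41.6%. miR-429-3p was shorter, with 39.3% of its reads at 21 nt and 47.6% at 22 nt on average over the 8 libraries. miR-200b-3p was spread over 21 nt (27.3%), 22 nt (41.5%) and 23 nt (17.7%), and miR-200c-3p had 41.6% at 22 nt and 34.7% at 23 nt, the length RefSeq gives for it.

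Arms with one seed were compared in 4 pairs for 3 measures, mean read length, share of shifted 5′ ends and share of untemplated 3′ ends, with adjustment over the 12 tests. Only lengths passed. miR-200b-3p averaged 21.8 nt against 22.2 nt for miR-200c-3p, shorter in 8 of 8 libraries by 0.361 ± 0.133 nt (SD, exact two-sided sign-flip permutation p = 0.00781, adjusted p = 0.0469). miR-429-3p averaged 21.7 nt and was also shorter than miR-200c-3p in 8 of 8 libraries, by 0.485 ± 0.344 nt (the same exact permutation p and adjusted p). miR-200a-3p was longer than miR-141-3p in 7 of 8 libraries by 0.247 ± 0.203 nt, which did not pass (exact permutation p = 0.0156, adjusted p = 0.0625).

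Untemplated 3′ ends were present on all 3p arms. They averaged 13.6% ± 2.01 of miR-200b-3p reads, 15.2% ± 5.83 of miR-200c-3p reads and 11.5% ± 5.18 of miR-429-3p reads (SD, n = 8). miR-200a-3p had 8.96% ± 2.27 and miR-141-3p 13.6% ± 5.09, a difference that did not pass (exact permutation p = 0.0469, adjusted p = 0.141). The first untemplated base was mostly A or T, for example A in 7.63% and T in 7.50% of miR-200c-3p reads, while C was at most 0.251% (miR-200b-3p) on any of the 5 arms.

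**Figure D5:**
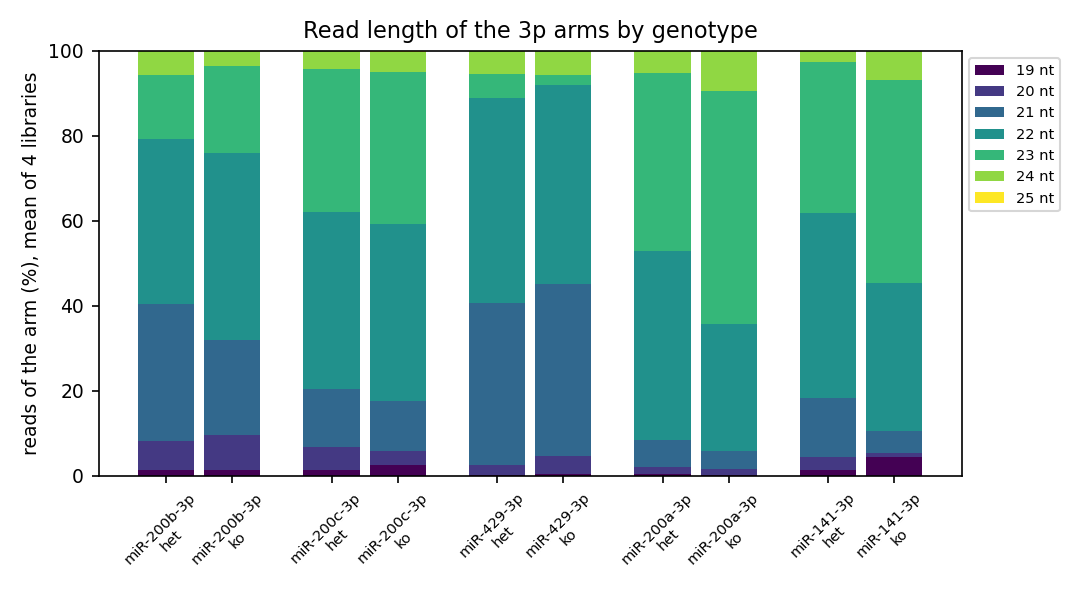
Read length of the 5 3p arms as the mean percent of the arm's reads over the 4 libraries of each genotype, stacked from 19 nt at the bottom to 25 nt at the top. The 23 nt part of miR-200a-3p is 41.9% in het and 54.8% in ko, and miR-429-3p has the least 23 nt reads.

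Between genotypes, 1 of 15 isoform measures did not overlap, the mean length of miR-200a-3p. It averaged 22.4 ± 0.0671 nt (SD) in het libraries and 22.7 ± 0.0930 nt in ko libraries. The 22 nt share was 40.2%, 41.6%, 47.3% and 48.4% in het and 28.3%, 34.8%, 27.1% and 29.5% in ko, and the 23 nt share was 46.6%, 46.9%, 38.5% and 35.7% in het and 61.6%, 50.3%, 56.4% and 51.1% in ko. Every ko library thus had a smaller 22 nt share and a larger 23 nt share of its miR-200a-3p reads than any het library. Mean length did not overlap between genotypes for 2.17% of the 277 miRNAs with at least 20 reads in every library, the share of shifted 5′ ends for 3.25% and the share of untemplated ends for 1.08%.

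In ko replicate 3 the family's reads also differed in form. Of its 974 miR-141-3p reads 67.7% were 23 nt, against 32.7% to 50% in the other libraries, and of its 1916 miR-200c-3p reads 58.5% were 23 nt, against 23.3% to 42.5%. Their untemplated ends were the fewest of any library, at 5.75% for miR-141-3p and 8.66% for miR-200c-3p. The chromosome 4 arms shared part of this. miR-200b-3p had 31.7% of its 637 reads at 23 nt there, against 11.02% to 22.9% elsewhere, and 10.2% untemplated ends, against 12.2% to 16.5%. miR-200a-3p had its largest mean length there, 22.8 nt, but also its largest share of untemplated ends, 12.03%. miR-429-3p went the other way in length. It had its shortest mean there, 21.37 nt against 21.53 to 21.94 nt elsewhere, with 60.3% of its 73 reads at 21 nt and none at 23 nt. It had no untemplated end among these reads, which allows up to 4.11%. Over 272 other miRNAs the median mean length in this library was 21.83 nt and the median share of untemplated ends 10.8%, and the other libraries had medians from 21.76 to 21.85 nt and from 9.44% to 12.2%.

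Shifted 5′ ends were rare but change the seed. Reads that start 1 base later gave miR-200b-3p (202 reads), miR-429-3p (83) and miR-200c-3p (76) the seed AUACUG, with a viability of 83.7, and gave miR-200a-3p (254) and miR-141-3p (10) the seed ACACUG, with a viability of 78.7. Reads that start 1 base earlier were 1.21% of miR-200c-3p reads (85), with the seed UAAUAC and a viability of 72.3. Of these, 53 were in ko replicate 3 (2.77% of its 1916 reads) and 12 in ko replicate 2 (9.30% of 129). Without ko replicate 3 the share was 0.624% (32 of 5132), and without both it was 0.400% (20 of 5003). The other libraries lay between 0 and 1.60%. The other 3p arms also had reads that start 1 base earlier. Without ko replicates 2 and 3 their shares ran from 0.295% for miR-200a-3p to 0.528% for miR-141-3p. Of the 5p arms, 19.3% of miR-200b-5p reads (66) and 14.3% of miR-200a-5p reads (9) started 1 base late, with the seed UCUUAC and a viability of 79.5. Most of these came from het replicate 4, with 51 of the 66 and all 9. Without it the shares were 10.1% (15 of 148) for miR-200b-5p and 0 of 37 for miR-200a-5p, which allows up to 8.11%.

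The miRNAs whose profile over the 8 libraries was most like the family sum were found by the smallest root mean square difference of centred log2(CPM + 1) values among 457 others with at least 10 CPM. miR-183-5p was the nearest at 0.28 log2 units, followed by miR-182-5p (0.68) and miR-96-5p (0.75). The next were miR-503-5p (1.44) and miR-351-5p (1.44), and the median over all was 1.93. miR-183-5p measured 73.4, 61.2, 36.9 and 105 CPM in het and 1.91, 1.86, 21.9 and 17.6 CPM in ko, so it too was higher in ko replicates 3 and 4 than in the 2 deepest libraries. The first 3 form a cluster known from sensory cells, and its sum lay between 389.8 and 1338 CPM in het libraries and between 26.5 and 129 CPM in ko libraries.

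miRNAs of other cells that a brain dissection could hold were examined with 26 names in 8 lists, 24 of them fitted. The sensory cluster had 3 of 3 lower in ko, by -4.29 for miR-96-5p, -3.20 for miR-182-5p and -3.09 for miR-183-5p (limma adjusted p = 0.000463, 0.00333 and 0.0490), and the lists were chosen with earlier results known. miR-96-5p and miR-182-5p were called in all 17 alternative settings, with adjusted p up to 0.00277 and 0.0218. Over the settings, estimates ran from -4.76 to -3.43 for miR-96-5p, -3.59 to -2.40 for miR-182-5p and -3.61 to -1.67 for miR-183-5p. miR-183-5p was called in 8 of the 16 that fitted it (adjusted p from 0.00692 to 0.219), and was lost with edgeR, a pseudocount of 0.1, without the 2 deepest libraries, and without het replicate 1, 2 or 4 or ko replicate 1 or 2. Of the 21 miRNAs fitted from the other 7 lists, limma, edgeR and DESeq2 each called 0, and 3, 1 and 1 had an unadjusted p under 0.05. Of the 4 epithelial names 2 were fitted. miR-203-3p ranged from 65.2 to 113 CPM in het libraries and from 59.3 to 80.3 CPM in ko libraries, and miR-31-5p from 562 to 824 CPM and from 297 to 1842 CPM. miR-205-5p, at 2.75 to 18.8 CPM and 3.05 to 11.8 CPM, was under the minimum, and no sequence carried the name miR-203b-3p. The epithelial sum ranged from 633 to 955 CPM in het libraries and from 359.7 to 1918 CPM in ko libraries, and these ranges overlapped.

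The lists of the pituitary and other endocrine cells (318 to 671 CPM in het, 296 to 557 CPM in ko), choroid plexus (2382 to 4665 and 2117 to 4483 CPM), blood (2489 to 4032 and 1287 to 2902 CPM), oligodendrocytes (5981 to 9574 and 4002 to 6927 CPM) and endothelium with smooth muscle (8349 to 14095 and 7965 to 13441 CPM) overlapped between the genotypes in their sums. The choroid plexus sum is nearly all miR-204-5p. The other name in that list, miR-211-5p, measured 0, 0, 9.71 and 12.4 CPM in het libraries and 43.6, 18.9, 47.7 and 8.82 CPM in ko libraries, with an estimate of 2.88 (SE 0.93) that did not pass (limma adjusted p = 0.266, unadjusted p = 0.00861). It lay in the opposite direction to the family, and the groups overlapped. In the blood list the estimates ran from -1.07 for miR-144-3p to 0.03 for miR-486a-5p, whose reads are named jointly with miR-486b-5p in the table, and 0 of the 5 passed with limma. The part of other cells in the family's levels was not tested.

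Fragments of mRNAs tied to the family were few among the Ago-bound reads. Of its classic targets, Zeb1 had no sequence and Zeb2 had 2 sequences with 20 reads in all. Of the epithelial genes, Cdh1, which encodes E-cadherin, had 1 sequence with 8 reads and Epcam had none. Host transcripts gave 88 reads from Gm13648 in 4 sequences and none from Ttll10 or Gm15884. These reads are short fragments bound to Ago and do not measure the mRNAs.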

How the data were processed

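The deposited CPM values were made by the authors with their SPOROS pipeline. Reads were trimmed (Trim Galore, per the labels), rare and artificial reads were dropped, and sequences were named by BLAST. The genome build and versions are not given in the sources used here. Scaling makes each value relative to its library. The seed viability in the table is a deposited score, averaged over 3 mouse cell lines and not measured in these mice. Values were whole multiples of 1 read (99.958% to 100% per library, within 1% of a read), which gave 509839 to 19878054 reads per library. Wilson intervals and floors cover counting error only.

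CPM were summed by miRNA name. miRNAs that averaged 10 CPM or more were fitted with limma 3.58.1 (trend, robust) in R 4.3.3 on log2(CPM + 1), without covariates. A fold change on this scale understates the change of low miRNAs. edgeR 4.0.16 and DESeq2 1.42.0 were run on the recovered reads as alternatives, and called 4 and 9 miRNAs. Arms were compared within libraries by exact two-sided sign-flip permutation tests with Benjamini-Hochberg adjustment. A minimum of 20 reads per library applied to arm shares and isoforms. The order of the arms and the locus and seed ratios used all 8 libraries without a minimum. Isoforms were called against RefSeq hairpins (Python 3.11.15). Scripts were tested on simulated data. The members and lists were chosen with earlier results of these data known. The miRNAs named are the members, the other arms of their hairpins, the 5 most like the family sum and the listed miRNAs. miR-31-5p in ko replicate 3 was singled out after its values were seen.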

Additional observations from a re-analysis of the deposited data

Results flagged for a closer look

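In groups of 4 libraries, a value was singled out when its gap to the nearest other took up more of the group's range than Dixon's 95% limit allows. Chance gives about 1 in 20, or 2.7 of the 54 groups examined, and 5 stood apart.

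Of these, 4 were in ko replicate 3. miR-200c-3p was 823 CPM there and 85.2 CPM in the next ko library, miR-141-3p was 418 CPM with the next at 21.6 CPM, and the summed 3p arms of their locus were 1242 CPM with the next at 107 CPM. These are 1 pattern, since the sum is made of the first 2. miR-200a-5p was 3.87 CPM there, with the next at 0.251 CPM, on 9 and 5 reads. In het replicate 1 the mean length of miR-200c-3p was 22.3 nt, with the next het library at 22.1 nt.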

How the results depend on the processing

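The 463 miRNAs gave 6 calls, and 4 to 9 when 1 library was left out. With the replicate block they gave 10, but the replicate numbers mark different mice and the correlations of same-numbered libraries ran from -0.18 to 0.29, so the libraries were not taken as paired. The family sum differed by -3.21, by -3.86 to -2.73 with 1 library left out and by -1.85 without the 2 deepest libraries. Of the 6 neighbour pairs 3 passed, with 0 left without those 2 libraries and 4 without ko replicate 3. Without the 2 deepest libraries the locus ratio was 1.63, no longer past the threshold. With 6 libraries no neighbour pair could have passed unless 4 reached the smallest p. The seed ratio was 0.26, and -0.071 in the het libraries alone. Of the 12 isoform pairs 2 passed, and 0 in each setting that left out 1 library or the 2 deepest, where the smallest possible p cannot pass for 2 of 12. The 1 isoform measure without overlap became 2 with at least 50 reads, and 1 to 3 with 1 library left out. Over all settings the arms' estimates ranged from -4.30 to -3.67 for miR-429-3p, -4.25 to -2.88 for miR-200a-3p, -3.26 to -1.75 for miR-200b-3p, -5.32 to -1.77 for miR-141-3p, -4.20 to -0.49 for miR-200c-3p and -3.32 to -1.42 for miR-200b-5p. The reads of the hairpins without a mature name, added after seeing the data, left the family difference at -3.21. Within 1 genotype, 5 differences that had not passed changed sign, beside the seed ratio in het given above. In ko, miR-429-3p over miR-200c-3p was -0.20 log2 units and the shifted share of miR-200a-3p minus miR-141-3p -1.11 points. In het, miR-200b-3p minus miR-200c-3p was 0.625 points for shifted and 1.57 for untemplated ends, and miR-429-3p minus miR-200c-3p 0.304 for untemplated ends. Depth limits the 5p arms, with 63 reads of miR-200a-5p in all.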
